A study of Mus musculus with 8 samples.

Results

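The 8 genes described here encode suppressive cytokines, ectoenzymes and related secreted products of regulatory T (Treg) cells and were followed through 8 RNA-seq libraries. They were chosen by name, as Il10, Ebi3, Il12a, Areg, Fgl2, Entpd1, Nt5e and Penk, and all 8 were found by their Ensembl identifiers among the 53465 identifiers of the deposited tables. The rule that picks them uses no measured value, though results of these data were known when it was written. In mouse build mm10 (GRCm38) they lie at chr1:131019845-131024974 (Il10), chr17:55952640-55957022 (Ebi3), chr3:68690644-68698547 (Il12a), chr5:91139599-91148432 (Areg), chr5:21372642-21378374 (Fgl2), chr19:40612366-40741602 (Entpd1), chr9:88327197-88372092 (Nt5e) and chr4:4133531-4138819 (Penk), and each value is of all exons of the gene. The study deleted Brg1 (gene symbol Smarca4), the ATPase of the BAF chromatin remodelling complex, in mouse Treg cells and then turned it back on in some of the cells of sick mice.

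Treg cells hold other immune cells in check through cell contact and through secreted products, and the 8 genes cover several of these routes. Il10 encodes interleukin-10, a cytokine that restrains macrophages, dendritic cells and T cells. Ebi3 and Il12a encode the paired subunits of interleukin-35. Areg encodes amphiregulin, a ligand of the EGF receptor known for tissue repair by Treg cells, and Fgl2 encodes a secreted fibrinogen-like protein that inhibits antigen presentation. Entpd1 (CD39) and Nt5e (CD73) encode cell-surface enzymes that act in sequence, the former breaking down extracellular ATP and ADP to AMP and the latter AMP to adenosine, which dampens T-cell responses through its receptors. Penk encodes proenkephalin, the precursor of the opioid enkephalin peptides.

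All libraries were made from CD4+CD25+ cells sorted from spleen and lymph nodes of mice aged 3 to 4 weeks, of mainly C57BL/6 background. All mice carried R26 CAG-FlpoER, a Flp recombinase that tamoxifen (TAM) switches on. Cre came with the YFP of the Foxp3 YFP-Cre allele, so that Brg1 deletion was confined by design to cells that express Foxp3, and YFP+ cells were sorted except where stated. The WT library was from Brg1 F/+ Foxp3 YFP-Cre/+ mice, whose Treg cells keep 1 Brg1 allele and are not fully wild type. The mosaic libraries were from healthy Brg1 F/ΔR females heterozygous for Foxp3 YFP-Cre, in which X inactivation leaves Brg1-sufficient (YFP-) cells next to Brg1-deleted (YFP+) cells. The other libraries were from rKO1 mice, which are Brg1 F/ΔR with Cre in every Treg cell and develop severe inflammation, where ΔR is a reversible gene trap that carries GFP. They comprised untreated rKO1 Treg cells, and the GFP+ (still Brg1-deleted) and GFP- (Brg1-reexpressed, the cells the study calls SuperTreg) cells sorted on Day 7 after low-dose TAM. In a separate experiment GFP+ and GFP- activated Treg (aTreg) cells, gated as CD44hi CD62Llo, were taken from TAM-treated rKO1 mice at the same day. The ΔR line, made on a mixed strain background, had been backcrossed to C57BL/6 for 3 generations only, and the F/+ mice of the WT library lack ΔR. Each condition was 1 library, so no difference here has a replicate check and no p-value is given.

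The deposited unit was FPKM, fragments scaled by transcript length and by sequencing depth, from which whole read counts were recovered. Levels are given as reads, as CPM (reads scaled to a common library size by TMM, for comparing a gene across libraries) or as deposited FPKM (for levels of different genes). A gene was tested where either library reached 5 CPM and was called where its CPM differed by at least 2-fold. Both limits are those of the study, which also required an adjusted p-value that 1 library per condition cannot give here. Intervals are exact (binomial or Poisson) at 95% and take in the error of counting reads alone. To show how far libraries differ without the contrast of interest, each fold was also set against a band, which holds the log2 folds of 95% of the 500 genes nearest to it in level. The band was taken from WT against mosaic Brg1-sufficient cells and from untreated against GFP+ rKO1 cells, and the wider value was used, with the second named where it gave another answer.

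Recovered reads were 16291842 to 24045680 per library, at which 1 read is worth 0.0412 to 0.0603 CPM and 0 reads allow up to 3 reads. Smarca4 was read 1459 times in WT, 1634 in mosaic Brg1-sufficient, 1146 in mosaic Brg1-deleted, 842 in untreated rKO1, 661 in GFP+ and 973 in GFP- cells. It was 1.63-fold higher in the Brg1-sufficient than in the Brg1-deleted mosaic library (95% CI 1.51 to 1.76) and 1.61-fold higher in GFP- than in GFP+ cells (1.46 to 1.78), both within the wider band defined above and the former beyond that of the untreated and GFP+ pair. The gene trap leaves upstream exons of Smarca4 transcribed, so its count is not a measure of intact Brg1. Among aTreg cells Smarca4 was 1.2-fold lower in the library labelled Brg1-reexpressed (1169 reads) than in the library labelled Brg1-deleted (1259 reads, 1.11 to 1.3). This direction is opposite to the labels, though the difference was within the band. The library labelled Brg1-deleted also carries a WT name and an F/F genotype in its own descriptions. All 6 Treg markers had more than 3 reads in every library, with a summed level of 1598 to 2895 CPM in the 6 total Treg libraries, but Foxp3 itself was 7.34-fold higher in mosaic Brg1-sufficient than in WT cells (95% CI 6.92 to 7.79). Erythroid markers summed to 22863 CPM in the aTreg library labelled Brg1-reexpressed against 1174 CPM in the other and 154 to 630 CPM among total Treg libraries, so that library stands apart. Y-linked genes had 0 reads in the WT and both mosaic libraries and a summed 68.9 to 217 CPM in the 5 rKO1 libraries, so sex differs between these sets of libraries. The mix of animals also differed among rKO1 libraries, since the female-specific Xist was at 0.523 CPM in untreated, 51 CPM in GFP+ and 45.5 CPM in GFP- cells, and at 42.4 against 12.3 CPM in the aTreg libraries labelled Brg1-reexpressed and Brg1-deleted, whose Y-linked genes summed to 68.9 and 160 CPM.

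RefSeq promoter sequences (build GRCm38.p6, 250 bases before to 50 after the annotated start, 32851 windows in all) were at hand for 6 of the 8 genes. They are shown for the secreted products whose level was higher with Brg1 in the mosaic libraries (Ebi3, Fgl2 and, at a level too low to be tested, Areg) and, as the contrast, for Nt5e, whose level differed little between those libraries. Capitals mark matches, on either strand, to any of 6 motifs: TGANTCA (AP-1), CGTCA (CREB/ATF), TTCNNNGAA (STAT), NF-kappaB (GGG and CC with any 5 bases between them), TGTGGT (RUNX) and TATAAA (the TBP site), with overlapping matches run together.
Ebi3, chr17:55952373-55952672, plus strand: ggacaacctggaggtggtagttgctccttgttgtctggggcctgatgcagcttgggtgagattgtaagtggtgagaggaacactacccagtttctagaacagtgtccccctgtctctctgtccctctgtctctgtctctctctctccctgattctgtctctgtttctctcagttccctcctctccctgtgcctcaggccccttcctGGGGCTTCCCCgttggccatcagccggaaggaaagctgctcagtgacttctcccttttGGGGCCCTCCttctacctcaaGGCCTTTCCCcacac
Fgl2, chr5:21372423-21372722, plus strand: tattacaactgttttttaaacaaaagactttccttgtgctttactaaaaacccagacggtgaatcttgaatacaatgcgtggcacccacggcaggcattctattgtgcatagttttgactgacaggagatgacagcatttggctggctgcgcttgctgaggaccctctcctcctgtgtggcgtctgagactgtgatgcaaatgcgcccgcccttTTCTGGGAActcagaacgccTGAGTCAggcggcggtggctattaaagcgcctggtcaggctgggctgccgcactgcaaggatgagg
Areg, chr5:91139349-91139648, plus strand: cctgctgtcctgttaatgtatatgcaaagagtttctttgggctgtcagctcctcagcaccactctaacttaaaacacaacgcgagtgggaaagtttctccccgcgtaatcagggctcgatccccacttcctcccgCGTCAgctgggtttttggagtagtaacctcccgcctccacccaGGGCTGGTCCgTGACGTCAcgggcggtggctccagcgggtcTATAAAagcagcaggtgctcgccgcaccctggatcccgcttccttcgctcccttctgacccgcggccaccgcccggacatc
Nt5e, chr9:88327359-88327658, plus strand: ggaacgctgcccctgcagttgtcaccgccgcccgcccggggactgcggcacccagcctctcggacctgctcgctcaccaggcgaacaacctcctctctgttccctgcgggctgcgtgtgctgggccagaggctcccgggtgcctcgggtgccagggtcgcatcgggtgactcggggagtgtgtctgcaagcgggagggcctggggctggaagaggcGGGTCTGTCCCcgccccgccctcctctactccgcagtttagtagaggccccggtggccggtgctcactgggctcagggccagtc
The Fgl2 window held TGAGTCA starting 16 bases before the start, a motif found in 7.81% of all windows, and a STAT match starting 36 bases before it, found in 8.30%. The Areg window held 3 CREB/ATF matches, of which 2 overlap as TGACGTCA starting 61 bases before the start, and TATAAA starting 31 bases before it. CREB/ATF matches occurred in 20.8% and TBP sites in 13.6% of all windows. The Ebi3 and Nt5e windows held matches to the NF-kappaB letters only, which 50.8% of all windows hold. Base composition differed more, since the Nt5e window was 71.0% G and C with 23 CpG, the Areg window 59.3% with 21, the Ebi3 window 56.3% with 2 and the Fgl2 window 51.7% with 12, against medians of 52.7% and 7 over all windows. The windows of Entpd1, whose level also differed little, are not shown and were 64.0% G and C with 23 CpG and 48.7% with 10. A match is only a string of letters and was not tested for binding.

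The first comparison asked how these genes differ between Brg1-deleted and Brg1-sufficient cells of healthy mice, which share the same animals. The deleted cells were sorted as YFP+ and the sufficient cells as YFP-, so Cre and the active Foxp3 allele differed as well. YFP marks Foxp3 expression, so only the YFP+ gate selected for it, and the share of other CD4+CD25+ cells may differ too. Cre, the Foxp3 allele and this share cannot be told apart from Brg1 loss here. In the mosaic libraries 4 of the 6 genes tested were at least 2-fold higher in the Brg1-sufficient cells and none was lower, where 6.12% of 10064 genes tested were called in either direction 4.03% being higher and 2.09% lower. The called genes were Il10, Ebi3, Fgl2 and Penk, and all 4 lay beyond the library-to-library band. In sorted bulk cells a smaller share of cells with a transcript and less transcript per cell cannot be told apart. Areg leaned the same way at too low a level to be tested, while both ectoenzyme genes stayed under 2-fold. The median log2 fold of the 6 tested was 2.75, against 0.03 over all genes tested. Under scaling by total reads, which moved the median of all genes by -0.13 on the log2 scale, the called genes split 300 higher and 307 lower in place of 406 and 210, and the same 4 genes of the 8 were called.

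Fgl2 had 270 reads in WT and 429 in mosaic Brg1-sufficient cells but 18 in mosaic Brg1-deleted cells, that is 16.3, 20.3 and 0.742 CPM. The difference within the mosaic was 27.3-fold (95% CI 17.1 to 46.5), the widest of the 8. Ebi3 followed closely, with 365 and 573 reads against 33, or 22.0 and 27.1 CPM against 1.36, a 19.9-fold difference (14.0 to 29.2). For both genes the WT and Brg1-sufficient libraries lay close together and the Brg1-deleted library far below. Ebi3 shares 23.4% of its exon bases, and Penk 14.3%, with a gene on the opposite strand, and since it is not stated whether strand was used in counting their reads may include those of the neighbour.

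Il10 had 344 reads in WT, 267 in Brg1-sufficient and 44 in Brg1-deleted cells, at 20.7, 12.6 and 1.81 CPM, which put the Brg1-sufficient library 6.96-fold above the Brg1-deleted one (95% CI 5.04 to 9.80). Penk had 1556, 2678 and 473 reads in the same order, at 93.8, 126 and 19.5 CPM, and differed 6.49-fold (5.88 to 7.17). Areg had 94, 100 and 30 reads, at 5.67, 4.72 and 1.24 CPM. Its 3.82-fold difference (2.52 to 5.95) was in the same direction, but neither mosaic library reached 5 CPM.

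The ectoenzyme genes did not share this pattern. Entpd1 was read 358 times in WT, 537 times in Brg1-sufficient and 635 times in Brg1-deleted cells, at 21.6, 25.4 and 26.2 CPM, and its mosaic fold of 0.969 (95% CI 0.863 to 1.09) was not distinguishable from 1 at this depth. Nt5e was read 2111, 2392 and 2471 times, at 127, 113 and 102 CPM, a 1.11-fold difference (1.05 to 1.17) that lay within the band. Il12a was all but silent, with 0 reads in WT, 1 in Brg1-sufficient and 10 in Brg1-deleted cells. Within the mosaic Foxp3 differed in the direction of the 4 called genes, at 536 CPM in Brg1-sufficient and 245 CPM in Brg1-deleted cells (2.19-fold, 2.12 to 2.26). In WT it was lower than in either, at 73.1 CPM, though the 4 genes were well above their Brg1-deleted level there. The summed markers of conventional effector T cells were also higher in Brg1-sufficient than in Brg1-deleted cells, at 57.5 against 21.3 CPM. Of the 6 Treg markers only 2 were higher in Brg1-sufficient cells, and their sum was lower there, at 2176 against 2352 CPM. The part of Foxp3 and of these markers in the differences was not tested. Summed myeloid markers were 402 and 332 CPM and B-cell markers 46.8 and 54.6 CPM in these libraries. The myeloid sum was mostly Cst3, and the macrophage markers Adgre1 (6 and 11 reads) and Csf1r (39 and 32 reads) were low in both. In WT myeloid markers summed to 661 CPM and B-cell markers to 74.3 CPM. Against Brg1-sufficient cells 4 of 5 myeloid markers tested were at least 2-fold higher in WT, where 9.32% of all genes tested were called. The part of such cells in the WT levels of Fgl2 and the other genes was not tested.

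**Figure D1:**
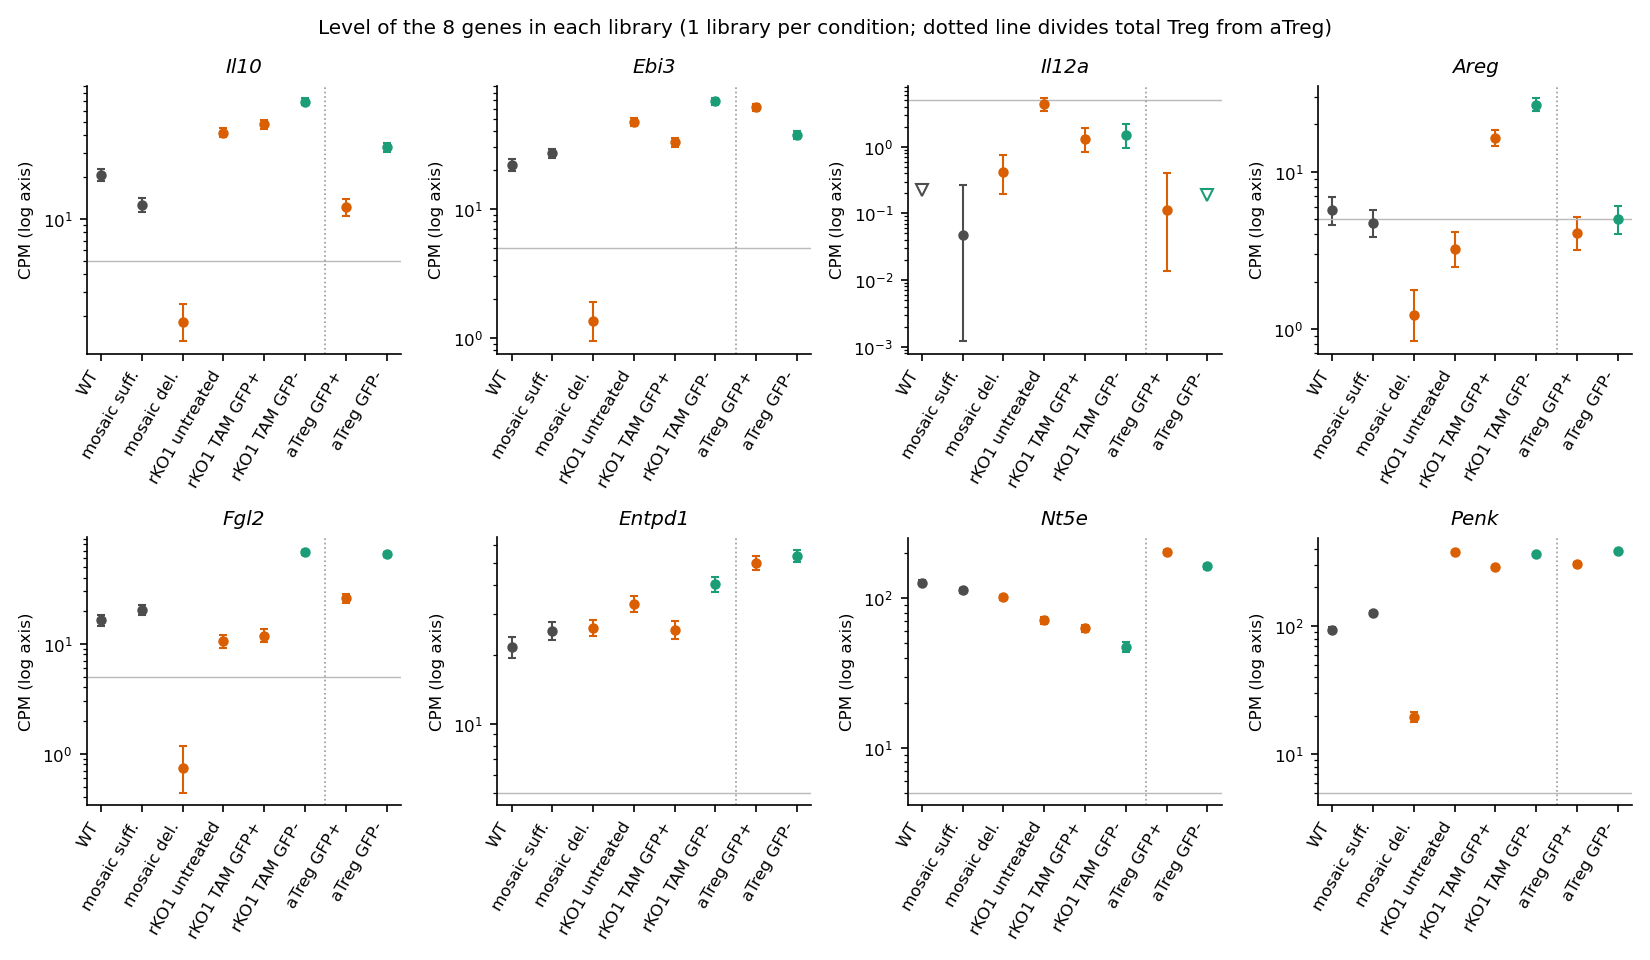
Level of each of the 8 genes (CPM, log axis; ranges differ between panels) in each library, 1 library per condition, with 95% Poisson intervals of the reads. Grey points are Brg1-sufficient, orange Brg1-deleted and green Brg1-reexpressed libraries by their labels, open triangles are the upper interval bound of libraries with 0 reads, and the horizontal line is 5 CPM. Il10, Ebi3, Fgl2 and Penk lie lowest in the mosaic Brg1-deleted library, while Nt5e is lowest and Entpd1 highest of the 6 total Treg libraries in GFP- cells.

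The untreated rKO1 library shows the same genes in Treg cells that are all Brg1-deleted and come from an inflamed mouse. Their low level in the mosaic was not seen there. Genotype, disease state, sex, animal and library cannot be told apart in the contrasts of untreated rKO1 with WT or mosaic cells. Against WT, 3 of 7 genes tested were called and all were higher in rKO1 cells, where 15.7% of 10473 genes were called in either direction, 8.6% higher and 7.1% lower. Against mosaic Brg1-sufficient cells 2 of 6 were called, both higher, where the share of 10453 genes was 17.3%, with 8.19% higher and 9.11% lower. With total-read scaling, which moved the median log2 fold of all genes by 0.30 and 0.35, the calls split 1652 higher to 467 lower in place of 901 to 744 against WT, and 1628 to 462 in place of 856 to 952 against mosaic cells.

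Penk was read 7250 times in untreated rKO1 cells, at 379 CPM, its highest level among total Treg libraries. This was 4.04-fold above WT (95% CI 3.83 to 4.27) and 3.00-fold above mosaic Brg1-sufficient cells (2.87 to 3.14), both beyond the band. Il10 was read 798 times, at 41.8 CPM, 2.01-fold above WT (1.77 to 2.29), which was within the wider band, and 3.31-fold above Brg1-sufficient cells (2.88 to 3.82), which was beyond it. Ebi3 was read 903 times, at 47.2 CPM, 2.15-fold above WT (1.90 to 2.43) and 1.75-fold above Brg1-sufficient cells (1.57 to 1.94). The opioid precursor and both cytokine genes were thus above the level of the controls, and the Il10 difference from WT and the Ebi3 difference from Brg1-sufficient cells passed the band of the untreated and GFP+ pair only.

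Il12a, the other IL-35 subunit, had 83 reads in untreated rKO1 cells against 0 in WT, at least 24.0-fold more when the WT library is set to the floor of 3 reads and 19.1-fold at the lower end of the exact 95% interval. Its level there, 4.34 CPM, was its highest in any library and still under 5 CPM. Fgl2 and Areg did not rise with the others. Fgl2 was read 201 times, at 10.5 CPM, against 16.3 CPM in WT and 20.3 CPM in Brg1-sufficient cells, 1.55-fold (95% CI 1.29 to 1.87) and 1.93-fold lower (1.63 to 2.29), and Areg was read 62 times, at 3.24 CPM, 1.75-fold below WT (1.25 to 2.45). Nt5e was lower as well, at 71.5 CPM from 1366 reads, 1.78-fold below WT (1.66 to 1.91) and 1.58-fold below Brg1-sufficient cells (1.48 to 1.69). Entpd1, at 33.3 CPM from 637 reads, was 1.54-fold above WT (1.35 to 1.76). All of these but Il12a were under 2-fold and within the wider band, though Nt5e against either control and Fgl2 against Brg1-sufficient cells passed the band of the untreated and GFP+ pair.

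The contrast between Brg1-deleted cells of inflamed and of healthy mice was far larger for most of the set. TAM-treated GFP+ cells were higher than mosaic Brg1-deleted cells in 5 of 7 genes tested and lower in none, where 13.3% of 10296 genes were called in either direction, 7.29% higher and 6.04% lower. The median log2 fold of the 7 was 3.89 and that over all genes tested -0.05. Total-read scaling moved the median of all genes by 0.13 on the log2 scale and the split from 751 higher and 622 lower to 957 and 460. Il10 was 26.4-fold higher (95% CI 19.5 to 36.6), Ebi3 24.3-fold (17.1 to 35.6), Fgl2 16.0-fold (9.87 to 27.5), Penk 14.8-fold (13.5 to 16.3) and Areg 13.3-fold (9.12 to 20.1), all beyond the band. Entpd1 did not differ detectably (0.979-fold; 0.867 to 1.1), and Nt5e was 1.62-fold lower in GFP+ cells (1.51 to 1.74), within the wider band and beyond that of the untreated and GFP+ pair. Inflammation, TAM, sex, animal and library cannot be told apart in this contrast. The TAM-treated GFP+ and the untreated rKO1 libraries, both Brg1-deleted, differed less, and TAM, animals, sex and library cannot be told apart between them (Xist 51 against 0.523 CPM). Of 7 genes tested only Areg was called, where 4.42% of 10297 genes were called, 2.16% higher and 2.26% lower (with total-read scaling the split was 193 higher and 352 lower in place of 222 and 233), at 301 reads and 16.4 CPM in GFP+ cells against 62 reads and 3.24 CPM in untreated cells (5.07-fold; 3.84 to 6.77). Il12a went the other way, with 24 reads in GFP+ cells against 83 (3.31-fold lower; 2.08 to 5.46), at under 5 CPM in both.

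Reexpression was compared within TAM-treated rKO1 mice, where GFP- and GFP+ cells share their animals. Of the 8 genes 7 were tested and 2 were called, Fgl2 and Ebi3, both higher in GFP- cells, where 12.7% of 10314 genes were called in either direction, 7.12% higher and 5.62% lower. The median log2 fold was 0.66 for the 7 and 0.06 for all genes tested. Only Fgl2 lay beyond the wider band, and 6 of the 7 had a fold above 1 (5 with total-read scaling, under which Penk fell just below it). Scaling by total reads moved the median of all genes by -0.35 on the log2 scale and turned the split of called genes from 734 higher and 580 lower to 373 and 1258, and Ebi3 was then no longer called.

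Fgl2 had 1132 reads in GFP- cells, 217 in GFP+ cells and 201 in untreated rKO1 cells, at 67.6, 11.8 and 10.5 CPM. It was 5.70-fold higher in GFP- than in GFP+ cells (95% CI 4.93 to 6.63), and the GFP+ and untreated libraries did not differ beyond counting error. Ebi3 had 1145, 605 and 903 reads, at 68.4, 33.0 and 47.2 CPM, 2.07-fold higher in GFP- than in GFP+ cells (1.87 to 2.29). This was within the wider band of 1.12 on the log2 scale and beyond that of the untreated and GFP+ pair (0.72). From the FPKM values as deposited the Ebi3 ratio was just under 2-fold.

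The rest of the set differed by less than 2-fold. Il10 had 1169 reads in GFP- and 876 in GFP+ cells, at 69.8 and 47.8 CPM (1.46-fold; 95% CI 1.34 to 1.59), and both exceeded every other total Treg library. Areg had 447 and 301 reads, at 26.7 and 16.4 CPM (1.62-fold; 1.40 to 1.89). Penk had 6060 and 5285 reads, at 362 and 289 CPM (1.25-fold; 1.21 to 1.3), and with total-read scaling its log2 fold turned from 0.33 to -0.02. Il12a had 25 and 24 reads, which did not differ beyond counting error.

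The ectoenzyme genes went opposite ways. Entpd1 had 677 reads in GFP- and 469 in GFP+ cells, at 40.4 and 25.6 CPM (1.58-fold higher in GFP- cells; 95% CI 1.40 to 1.78), and Nt5e had 791 and 1153 reads, at 47.2 and 63.0 CPM (1.33-fold lower; 1.22 to 1.46). Both were within the wider band, and Entpd1 was beyond that of the untreated and GFP+ pair. Among the markers of other cells, Lyz2 was 2.43-fold (2.18 to 2.73), Adgre1 2.91-fold (2.05 to 4.21) and Cd68 2.12-fold lower (1.73 to 2.61) in GFP- than in GFP+ cells, opposite in direction to Fgl2, with all 9 myeloid markers summing to 387 and 328 CPM, mostly Cst3. Conventional effector T-cell markers summed to 43.0 CPM in GFP- and 115 CPM in GFP+ cells, the latter the highest of the total Treg libraries and led by Il4 and Cd40lg. The part of these markers in the levels of Il10, Areg or Ebi3 was not tested.

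Set against Treg cells of mice without disease, the GFP- library was the highest of the total Treg libraries for 5 genes (Il10, Ebi3, Areg, Fgl2 and Entpd1) and the lowest for Nt5e. Against WT 5 of 7 genes tested were called higher and 1 lower, where 17.1% of 10320 genes were called, 9.74% higher and 7.37% lower (with total-read scaling, which moved the median of all genes by -0.14, the split was 787 to 932 in place of 1005 to 761). Against mosaic Brg1-sufficient cells the same 5 were called higher and the same 1 lower, where 21.8% of 10332 genes were called, 10.8% higher and 10.9% lower. Areg was 4.71-fold (95% CI 3.76 to 5.95), Fgl2 4.15-fold (3.63 to 4.76), Penk 3.86-fold (3.65 to 4.08), Il10 3.36-fold (2.98 to 3.81) and Ebi3 3.11-fold (2.76 to 3.50) above WT, all beyond the band. Nt5e was 2.70-fold below WT (2.48 to 2.93) and 2.39-fold below Brg1-sufficient cells (2.21 to 2.6). Genotype, TAM, sex and disease state cannot be told apart in these contrasts. WT and mosaic Brg1-sufficient cells themselves differed by less than 2-fold in all 7 genes tested, where 9.32% of 10136 genes were called, 4.18% higher and 5.14% lower in WT, with Il10 1.65-fold higher (1.40 to 1.94) and Penk 1.35-fold lower (1.27 to 1.44) in WT.

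**Figure D2:**
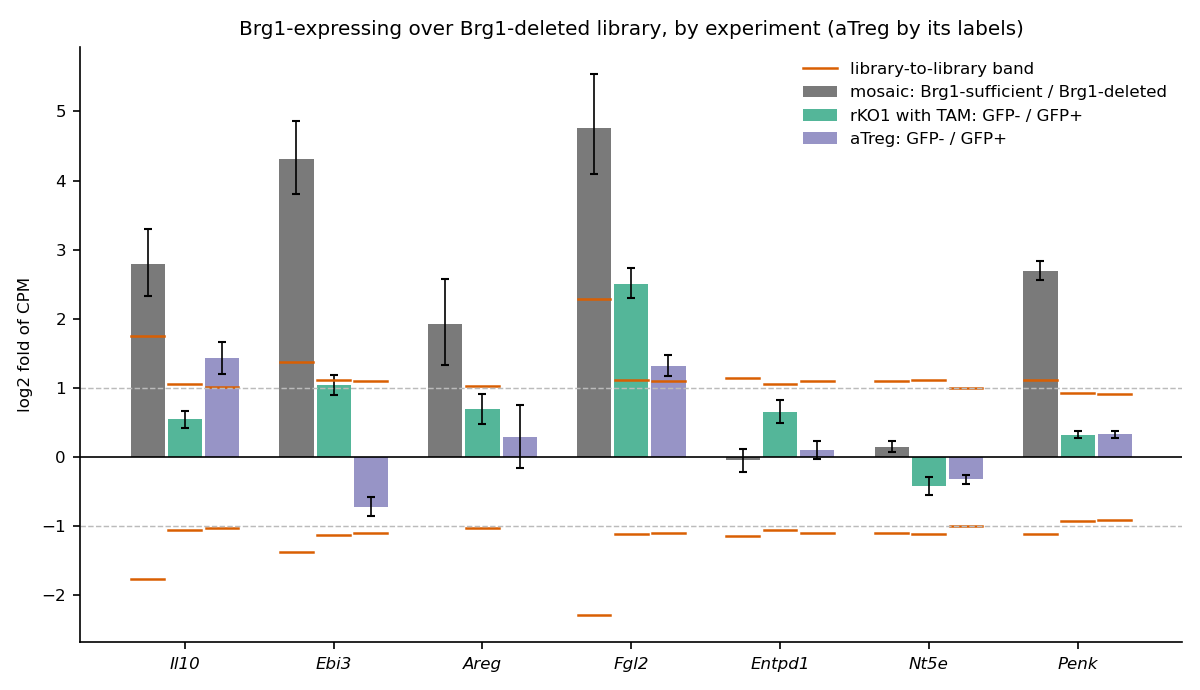
Log2 fold of CPM between Brg1-expressing and Brg1-deleted libraries for 7 of the genes (Il12a is left out for its low reads) in the mosaic (grey), the TAM-treated rKO1 mice (green) and, by its labels, the aTreg experiment (purple). Bars start at 0, whiskers are 95% intervals of counting error, dashed lines mark 2-fold, and short orange lines mark the library-to-library band where either library reached 5 CPM. Fgl2 is above 2-fold in all 3 experiments, at 27.3-fold, 5.70-fold and 2.50-fold, while Ebi3 is below 0 in aTreg cells.

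The aTreg libraries asked whether the differences within rKO1 mice held among cells that were all activated. Of 6 genes tested, Il10 and Fgl2 were higher in the library labelled Brg1-reexpressed and none was lower by 2-fold, where 6.44% of 10035 genes were called in either direction, 4.4% higher and 2.03% lower. The median log2 fold was 0.22 for the 6 and -0.06 for all genes tested. Smarca4 was 1.2-fold lower, not higher, in the library labelled Brg1-reexpressed, a difference within the band, and each direction here is by label. Gzmb, Lgals1 and Tigit were higher in that library, the direction they had in GFP- total Treg cells. Nrp1, of the same list of suppressive effector genes, was lower there, and Ebi3 went against its direction in total Treg cells. Whether the labels are right was not tested.

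Il10 had 644 reads in the library labelled Brg1-reexpressed and 215 in the library labelled Brg1-deleted, at 32.7 and 12.2 CPM (2.69-fold; 95% CI 2.30 to 3.16). Fgl2 had 1276 and 458 reads, at 64.8 and 25.9 CPM (2.50-fold; 2.25 to 2.79). Both were beyond the band. Ebi3 was opposite in direction to the total Treg experiment, with 739 and 1090 reads, at 37.5 and 61.6 CPM, 1.64-fold lower in the library labelled Brg1-reexpressed (1.49 to 1.80), though within the band. Penk had 7590 and 5418 reads, at 386 and 306 CPM (1.26-fold higher; 1.22 to 1.3), and Nt5e 3221 and 3618 reads, at 164 and 204 CPM (1.25-fold lower; 1.19 to 1.31). Entpd1, with 1061 and 887 reads at 53.9 and 50.1 CPM, did not differ beyond counting error (1.08-fold; 0.982 to 1.18), nor did Areg, with 98 and 72 reads at 4.98 and 4.07 CPM. Il12a had 0 and 2 reads.

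Some markers of other cells differed between the aTreg libraries in the direction of Il10 and Fgl2, and others in the opposite direction. Summed myeloid markers were 1024 CPM in the library labelled Brg1-reexpressed and 674 CPM in the other, and Adgre1, the macrophage marker F4/80, was 2.63-fold higher (2.0 to 3.5) and Fcgr3, an Fc gamma receptor gene of myeloid cells, 3.14-fold higher (2.66 to 3.74). All 6 erythroid markers were at least 2-fold higher in it, with Hba-a1 at 8486 against 605 CPM. Plasma-cell markers summed to 102 against 42.1 CPM and B-cell markers to 69.3 against 93.7 CPM. Conventional effector T-cell markers summed to 36.1 against 40.1 CPM, and those of CD8 T or NK cells to 26.9 against 27.9 CPM. The part of these cells in the Fgl2 and Il10 differences was not tested.

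The IL-35 subunit genes were far apart in level in every library. Per length, Ebi3 reached 23.5 FPKM in mosaic Brg1-sufficient cells where Il12a was at 0.0282 FPKM (1 read), and 20.5 FPKM in WT where Il12a had 0 reads. The ratio of Ebi3 to Il12a FPKM was smallest in mosaic Brg1-deleted cells, at 4.80 (95% CI 2.31 to 10.9), where both were near the floor. It was 15.8 in untreated rKO1 cells (12.6 to 20.1), 36.6 in GFP+ cells (24.4 to 57.7) and 66.6 in GFP- cells (44.9 to 103). Other partners of these subunits were also low, since Il12b, Il23a and Il27, the genes of further IL-12 family subunits, stayed under 5 CPM in all libraries.

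The balance of the ectoenzyme genes differed between the sets of libraries. By deposited FPKM, Nt5e exceeded Entpd1 3.83-fold in WT (95% CI 3.42 to 4.29), 2.89-fold in mosaic Brg1-sufficient (2.63 to 3.18) and 2.52-fold in mosaic Brg1-deleted cells (2.31 to 2.76). It exceeded it 1.39-fold in untreated rKO1 cells (1.27 to 1.53) and 1.59-fold in GFP+ cells (1.43 to 1.78). In GFP- cells the order turned, with Nt5e at 5.82 FPKM and Entpd1 at 7.68 FPKM, a ratio of 0.758 (0.683 to 0.841). The GFP- library was the only one of the 8 in which Entpd1 was the higher, and the rKO1 libraries of total Treg cells lay below the WT and mosaic libraries without overlap of the intervals. Among aTreg cells the ratio was 1.97 (1.84 to 2.11) in the library labelled Brg1-reexpressed and 2.65 (2.46 to 2.85) in the other, so it was lower in the GFP- library of both experiments.

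**Figure D3:**
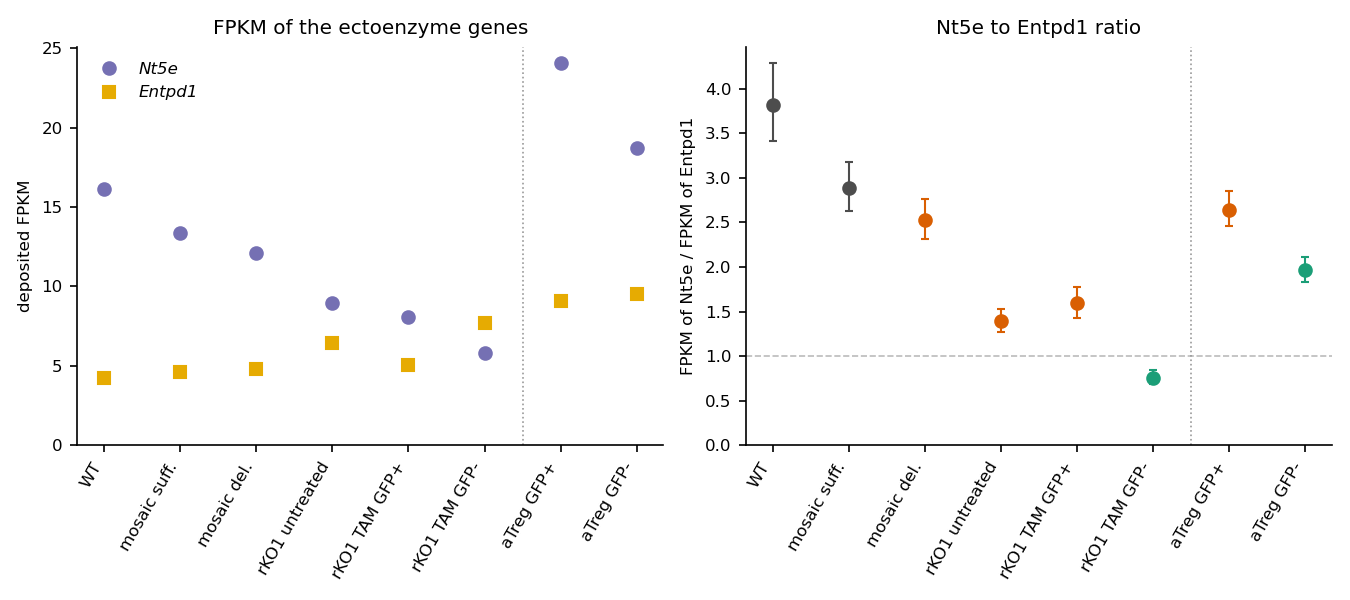
Left, deposited FPKM of Nt5e (circles) and Entpd1 (squares) in each library. Right, the ratio of the FPKM values with 95% intervals of counting error, coloured by Brg1 state as labelled, with a dashed line at 1. The ratio goes from 3.83 in WT to 0.758 in GFP- cells among the total Treg libraries.

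Penk had the highest FPKM of the set in 7 of the 8 libraries beyond counting error, and in mosaic Brg1-deleted cells it was level with Nt5e (12.2 and 12.1 FPKM). It stood at 62.7 FPKM in WT, 78.7 in mosaic Brg1-sufficient, 12.2 in mosaic Brg1-deleted, 251 in untreated rKO1, 194 in GFP+ and 235 FPKM in GFP- cells, and at 190 and 232 FPKM in the aTreg libraries labelled Brg1-deleted and Brg1-reexpressed. By FPKM it ranked 1093rd among the protein-coding genes in WT, 3257th in mosaic Brg1-deleted cells and 234th in untreated rKO1 cells. Penk made up 36.8% of the summed FPKM of the 8 genes in mosaic Brg1-deleted cells and 71.1% in untreated rKO1 cells. The sum itself was 33.1 FPKM in mosaic Brg1-deleted cells, 131 in WT, 139 in mosaic Brg1-sufficient, 298 in GFP+, 353 in untreated rKO1 and 410 FPKM in GFP- cells. The untreated rKO1 library thus had a high sum that was mostly Penk, Il10 and Ebi3, while Areg and Fgl2 added visibly to it in GFP- cells.

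**Figure D4:**
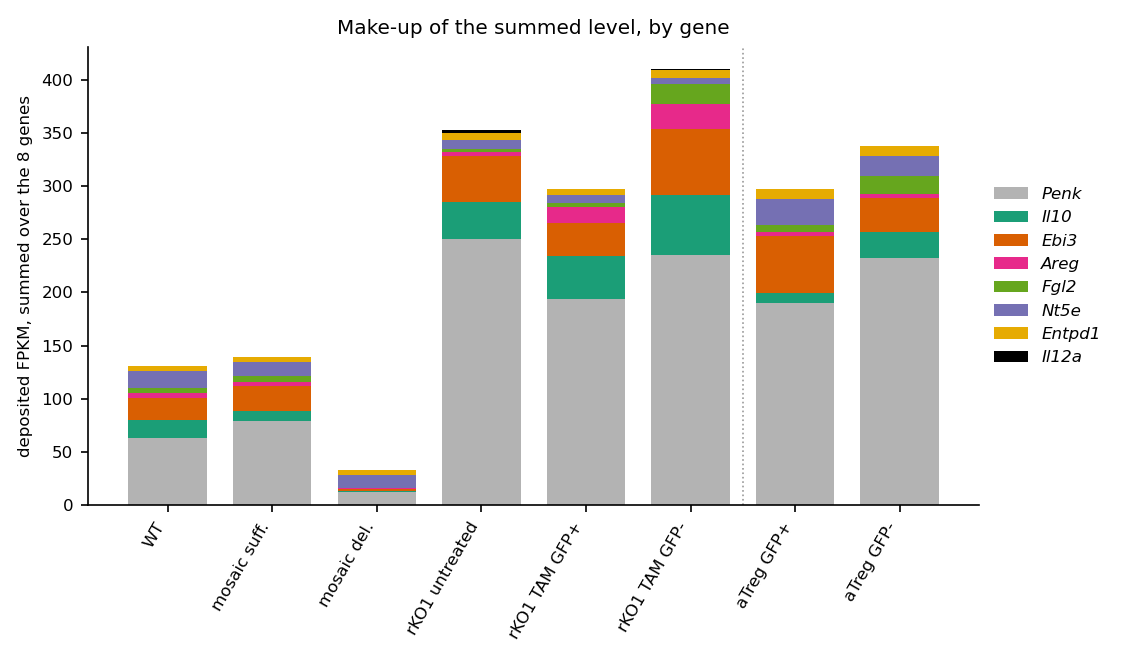
Deposited FPKM of the 8 genes stacked by gene in each library, with the dotted line between the total Treg and aTreg experiments, which were compared only within themselves. Penk (light grey) is the largest part of each bar but that of mosaic Brg1-deleted cells, where Nt5e is level with it, and the summed level is lowest in mosaic Brg1-deleted cells, at 33.1 FPKM.

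Over the 6 total Treg libraries the ectoenzyme genes ranged less widely than the other members, with Il12a left out for its low reads. Highest over lowest CPM was 91.2-fold for Fgl2, 50.3-fold for Ebi3, 38.5-fold for Il10, 21.6-fold for Areg and 19.5-fold for Penk, with mosaic Brg1-deleted cells lowest for each. It was 2.70-fold for Nt5e, which was called lower in GFP- cells than in WT or mosaic Brg1-sufficient cells, and 1.87-fold for Entpd1. The order from low to high was mosaic Brg1-deleted, mosaic Brg1-sufficient, WT, untreated rKO1, GFP+ and GFP- for Il10, with every neighbour apart beyond counting error. For Nt5e it was GFP-, GFP+, untreated rKO1, mosaic Brg1-deleted, mosaic Brg1-sufficient and WT. Neighbours that did not differ beyond counting error were WT and mosaic Brg1-sufficient for Areg, GFP+ and untreated rKO1 for Fgl2, and mosaic Brg1-deleted, GFP+ and mosaic Brg1-sufficient for Entpd1.

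The genes whose pattern lay nearest to each member were sought among 7070 genes of at least 20 CPM in some library, by the root mean square distance of log2 CPM centred over the 6 total Treg libraries, which share libraries and depth. Nearest to Fgl2 were Klrg1 (0.33), Myo1f (0.39) and S100a11 (0.39), and nearest to Ebi3 were Csf1 (0.34), Selenom (0.39) and Klrg1 (0.50). Il10 was nearest to Tmbim1 (0.40), Ccl4 (0.41) and Ctla2a (0.44), and Penk to Ctla2a (0.23), Mt1 (0.31) and Gcnt1 (0.33). Klrg1, a marker of terminally differentiated lymphocytes, thus stood near both Fgl2 and Ebi3, and Ctla2a near both Il10 and Penk. Areg was nearest to Cxcr6 (0.48), Nfil3 (0.50) and Morc1 (0.52). Entpd1 lay very near Smpd1 (0.09), Asxl1 (0.10) and Tnfrsf18 (0.10), and Nt5e near Mettl1 (0.10), Il6ra (0.13) and Sun2 (0.15).

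Genes of the pathways around the members were followed as 96 genes in 8 lists. In the mosaic 55 were tested, 15 were higher in the Brg1-sufficient library and 1 was lower, where 6.12% of all genes tested were called. Within TAM-treated rKO1 mice 57 were tested, 9 were higher and 4 lower in GFP- cells, where 12.7% of all genes were called. Among aTreg cells 56 were tested, 7 were higher and 1 lower in the library labelled Brg1-reexpressed, where 6.44% were called. The lists with most calls were the regulators of Il10 in T cells and other suppressive effector genes.

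Of the 14 regulators of Il10 all were tested, and the same shares of all genes apply to the counts that follow. In the mosaic 7 were higher in Brg1-sufficient cells and none lower, including Maf, a direct activator of Il10 (125 against 21 CPM, 5.95-fold; 95% CI 5.41 to 6.55), Prdm1, the gene of Blimp-1 (22.3 against 3.95 CPM, 5.64-fold; 4.52 to 7.10), the transcription regulator Id2 (4.49-fold; 4.21 to 4.78) and the aryl hydrocarbon receptor gene Ahr (4.11-fold; 3.40 to 4.99). In TAM-treated rKO1 mice Prdm1 (3.50-fold; 3.09 to 3.96) and Maf (2.44-fold; 2.30 to 2.58) were higher in GFP- cells, while Bach2, Tcf7 and Bhlhe40 were lower, beside an Il10 difference of 1.46-fold. Bach2, a repressor that restrains effector differentiation, was at 3.46 CPM in GFP- and 33.9 CPM in GFP+ cells (9.78-fold lower; 7.46 to 13.0), and Tcf7, a gene of resting T cells, at 26.6 and 183 CPM (6.88-fold lower; 6.23 to 7.61). Among aTreg cells only Id2 was called (2.01-fold higher; 1.95 to 2.08), where Maf was at 1.96-fold (1.84 to 2.10).

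Of 13 genes of receptors and relays of IL-10 and IL-35, 11 were tested in each comparison, and none was called in the mosaic or among aTreg cells. In TAM-treated rKO1 mice only Il6st, the gp130 chain of the IL-35 receptor, was called, 2.34-fold lower in GFP- cells (95% CI 2.05 to 2.68). These counts are near the shares of all genes tested that were called, 6.12% in the mosaic, 12.7% in rKO1 mice and 6.44% among aTreg cells. None of the 7 other IL-10 and IL-12 family cytokine genes reached 5 CPM in these comparisons.

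Around the ectoenzymes, 12 of 20 genes of nucleotide and adenosine handling were tested in the mosaic and in rKO1 mice and 13 among aTreg cells, with 2, 1 and 0 called, beside 6.12%, 12.7% and 6.44% of all genes. Adora2a, the gene of a receptor through which adenosine inhibits T cells, was higher in Brg1-sufficient mosaic cells (9.35 against 3.79 CPM, 2.47-fold; 1.92 to 3.19) and in GFP- rKO1 cells (12.1 against 5.84 CPM, 2.06-fold; 1.63 to 2.63). Both differences were within the wider band, and the mosaic difference passed the other. Adk, the adenosine kinase gene, was 2.18-fold higher in Brg1-sufficient mosaic cells (2.02 to 2.35), at 92.6 against 42.4 CPM. This was also within the wider band. No gene of the list was called among aTreg cells.

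The short lists around Areg, Penk and Fgl2 held few expressed genes. Of all genes tested 6.12% were called in the mosaic, 12.7% in rKO1 mice and 6.44% among aTreg cells. The genes tested here are too few to set against these shares. Of 14 EGF receptor ligands and processing genes 4 were tested in the mosaic. Rhbdf2, a cofactor of ADAM17-dependent ligand release, was 2.23-fold lower in Brg1-sufficient cells (1.77 to 2.82) within the band. None of the list was called within TAM-treated rKO1 mice (4 tested) or among aTreg cells (3 tested). Of 12 genes of proenkephalin processing and opioid receptors 4 were tested in the mosaic, and Cpe, the carboxypeptidase that trims enkephalin intermediates, was 3.28-fold higher in Brg1-sufficient cells (2.31 to 4.74) within the band. Of 4 genes listed around Fgl2, 1 was tested in the mosaic: Lag3, an inhibitory receptor gene, was 3.86-fold higher in Brg1-sufficient cells (2.95 to 5.10). In TAM-treated rKO1 mice 1 gene was tested and was lower in GFP- cells by less than 2-fold (log2 fold -0.79). Fcgr3 was the aTreg difference given above.

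Among other suppressive effector genes 4 of 9 tested in the mosaic were higher in Brg1-sufficient cells, where 6.12% of all genes tested were called, namely Tigit, an inhibitory receptor gene (95.9 against 5.85 CPM, 16.4-fold; 95% CI 13.8 to 19.6), Nrp1 (6.62-fold; 5.83 to 7.54), Lgals1, the gene of galectin-1 (3.45-fold; 3.36 to 3.55), and Gzmb, the gene of granzyme B (2.03-fold; 1.93 to 2.13). In TAM-treated rKO1 mice, where 12.7% of all genes were called, 6 of 10 were higher in GFP- cells, with Gzmb at 2525 against 347 CPM (7.29-fold; 7.10 to 7.48), Lgals1 4.31-fold (4.24 to 4.38), Tigit 3.97-fold (3.70 to 4.27) and Prf1, the gene of perforin, 3.45-fold (2.66 to 4.52) as the 4 with the largest folds. Among aTreg cells, where 6.44% of all genes were called, 5 of 10 were higher in the library labelled Brg1-reexpressed, led by Gzmb (893 against 73.1 CPM, 12.2-fold; 11.6 to 12.9) and followed by Havcr2, Lgals1, Tigit and Prf1, and Nrp1 was 2.57-fold lower (2.36 to 2.79). Tigit, Lgals1 and Gzmb were called higher in all 3 comparisons, as was Fgl2 among the 8 genes.

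**Figure D5:**
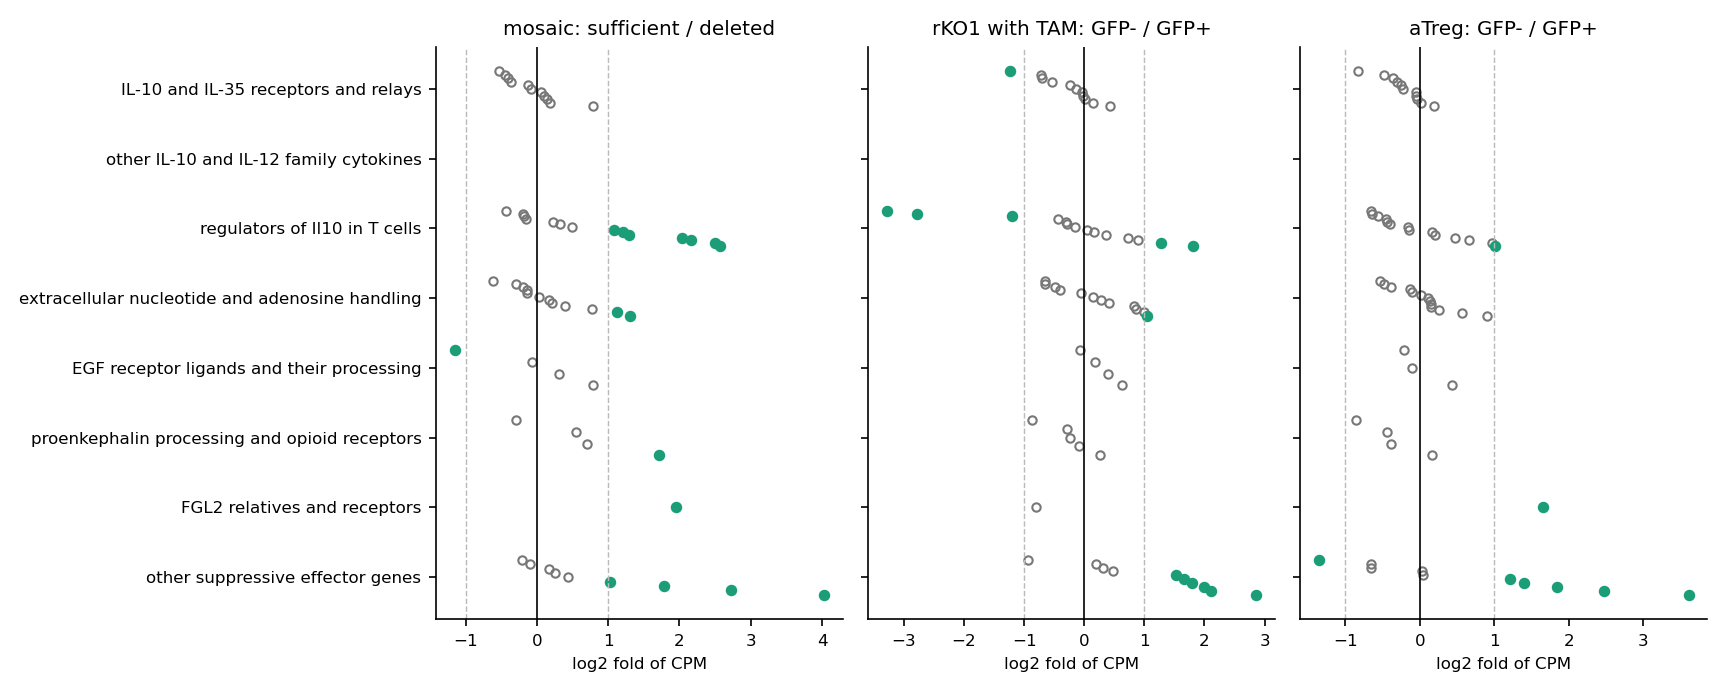
Log2 fold of CPM of each tested gene in the 8 pathway lists (rows), between Brg1-expressing and Brg1-deleted libraries of the mosaic (left), the TAM-treated rKO1 mice (middle) and, by its labels, the aTreg experiment (right), 1 library on each side. Filled points are at least 2-fold apart and open points less, dashed lines mark 2-fold, and no gene of the list of other IL-10 and IL-12 family cytokines was tested. Filled points are most frequent among the regulators of Il10 (7 of 14 in the mosaic) and the other suppressive effector genes (6 of 10 in rKO1 mice).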

How the data were processed

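RNA was amplified with SMART-Seq v4 from sorted cells and sequenced as paired ends. Per the labels, the authors aligned reads to mm10 with HISAT2 2.0, counted them with featureCounts 1.5.0-p3, also listed StringTie 1.3.3b, and deposited FPKM per gene. Whether counting used strand was not given in the sources used here. From the deposited FPKM and the merged exon lengths of GENCODE release M21, whole reads were recovered (tolerance 0.02 reads). With these lengths 93.4% of 26020 genes with reads came out whole in the total Treg libraries, 1685 with another length (Ebi3 among them) and 23 only after rounding, and 100% of 21242 in the aTreg libraries. Of 53465 identifiers, 105 were not in M21.

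Reads were scaled by TMM (Python 3.11.15, NumPy 2.4.6, SciPy 1.17.1), within the total Treg and the aTreg libraries separately, with 0.125 reads added for log2 folds. Scripts were tested on simulated data. With 1 library per condition no test was run in the 10 comparisons. The 8 genes and all gene lists were chosen with earlier results of these data known. Genes named beyond the 8 were the 3 nearest in pattern to each, list members at least 2-fold apart, or markers beside a result. Alternatives were median-of-ratios or total-read scaling, FPKM ratios, pseudocounts of 1 and 0.1 on log2 FPKM, a prior of 1 read, filters of 1 CPM or none, and 1.5-fold and 4-fold thresholds.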

Additional observations from a re-analysis of the deposited data

Results flagged for a closer look

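Ebi3 was opposite in sign between experiments that share no library. Its log2 fold of Brg1-expressing over Brg1-deleted cells was 4.31 in the mosaic and 1.05 in TAM-treated rKO1 mice, but -0.71 among aTreg cells, by label. Smarca4 was 1.2-fold lower in the aTreg library labelled Brg1-reexpressed, opposite in direction to the labels but within the band. Its count is not a measure of intact Brg1. Nt5e was slightly higher in the Brg1-sufficient mosaic library, at a log2 fold of 0.15, and lower in the GFP- libraries, at -0.41 in rKO1 mice and -0.32 among aTreg cells. Both Nt5e differences among GFP- libraries and that in the mosaic were within the library-to-library band. With 1 library per condition these differences between experiments were not tested.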

How the results depend on the processing

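No paired analysis was possible because each condition was 1 library, and leaving out a library left no comparison. No called direction reversed, while the sign of folds under 2-fold turned for Penk and Il12a in TAM-treated rKO1 mice with total-read scaling and for Entpd1 in GFP+ against mosaic Brg1-deleted cells with every setting but the prior of 1 read. Of the 10 comparisons, median-of-ratios scaling and a prior of 1 read left the count of called members within 1.5 times in all. In TAM-treated rKO1 mice, where 2 members were called, total-read scaling, the FPKM ratio, log2(FPKM + 1), log2(FPKM + 0.1) and a 4-fold threshold each gave 1, and a 1.5-fold threshold gave 4. For untreated rKO1 against WT the count of 3 became 7 at 1.5-fold and 1 at 4-fold, and against mosaic Brg1-sufficient cells 2 became 5 at 1.5-fold, 0 at 4-fold and 4 with total-read scaling. For GFP+ against untreated rKO1 cells 1 became 2 with total-read scaling, at 1 CPM and with no filter. For GFP- cells against WT or mosaic cells 6 became 2 at 4-fold. WT against mosaic cells gave 1 in place of 0 at 1.5-fold and with no filter, and aTreg cells 0 in place of 2 at 4-fold. The cause of the total-read changes was not tested. Of 78 member folds, total-read scaling moved 25 beyond their counting interval, log2(FPKM + 1) moved 22, which understates genes of low level, and log2(FPKM + 0.1) moved 4. Reads limit Il12a and, in mosaic Brg1-deleted cells, Fgl2, Areg, Ebi3 and Il10.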
